A study of Mus musculus with 6 samples.

Results

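The complement genes examined here were C1qa, C1qb, C1qc, C4b, C3, Cfb, Cfp, C3ar1 and C5ar1, which encode components of the complement cascade and receptors for its activation peptides. They were found by exact gene symbol, and all 9 had a row among the 15168 genes of the expression table. The samples were macrophages sorted from dorsal skin wounds 3 days after full-thickness 10 mm excisions were made, and their RNA was sequenced in bulk. All animals were female C57BL6/J mice without a genetic alteration, 12 weeks old in the young group and 24 months old in the aged group. Each age group held 3 samples, marked by set letters A, B and C. Every sample was wounded skin, so no unwounded or untreated control was part of the comparison. Cells were taken as F4/80+ CD64+, after a CD45+ CD11b+ gate per the study's methods. The gate held no Ly6G exclusion, which left room for some neutrophils. The labels do not say whether a sample was 1 mouse or a pool, nor which of the study's animal facilities it came from. P-values therefore measure the spread between these samples only.

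Complement is a set of plasma and tissue proteins that tag particles for phagocytosis and release inflammatory peptides. The classical pathway starts when C1q binds antibody complexes or dying cells, which leads to cleavage of C4 and then of C3. The alternative pathway amplifies C3 cleavage through factor B and is stabilised by properdin, and the released C3a and C5a act through C3ar1 and C5ar1 on myeloid cells. Tissue macrophages are a main source of C1q, unlike most complement proteins of the plasma, which come largely from the liver.

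In aged Day 3 wound macrophages, the transcripts for all 3 C1q chains and for factor B were lower than in young ones, and the transcript for the C5a receptor was higher. The summed level of the C1q transcripts was 5359 ± 201 CPM in young samples and 2639 ± 664 CPM in aged ones (SD, n = 3 per group). CPM is the count of a gene relative to the scaled total count of its sample. Cfb fell from 177 ± 52.0 to 66.1 ± 36.1 CPM, while C5ar1 rose from 1038 ± 394 to 2221 ± 212 CPM (SD, n = 3 per group). Properdin (Cfp) had nearly equal means in both groups, and C3, C3ar1 and C4b had higher means in aged samples without passing the test. A gene was called when the p of edgeR's quasi-likelihood test, adjusted after Benjamini and Hochberg across the 11878 tested genes, was under 0.05. By this rule 1 member was higher, 4 were lower and 4 were not called, against 9.73% of all tested genes called higher and 7.97% called lower. The median log2 fold change of the 9 members was 0.02, beside -0.02 over all tested genes. In bulk RNA, fewer cells of a type and less RNA per cell cannot be told apart.

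All 9 genes lie on the minus strand of mm10, the build of the files. C1qa (chr4:136895917-136898803), C1qc (chr4:136889804-136893065) and C1qb (chr4:136880129-136886187) sit next to each other within 18675 bases. C4b (chr17:34728380-34743882) and Cfb (chr17:34856374-34862518) lie in the same region of chromosome 17, 112491 bases apart, and C3 (chr17:57203970-57228136) is on the same chromosome but far from both. C3ar1 (chr6:122847138-122856161), C5ar1 (chr7:16246743-16259540) and Cfp (chrX:20925454-20931555) stand alone. The C5a receptor gene C5ar1 has its sister receptor C5ar2 as a neighbour 2589 bases away. The values belong to whole genes, over all their exons and untranslated regions.

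Sequences before the RefSeq start are shown for the neighbouring genes C1qb and C1qc, which were called lower, and for the receptor genes C5ar1, which was called higher, and C3ar1, which was not called. RefSeq windows of GRCm38.p6 were matched for 6 of the 9 members, not for C1qa, Cfb or C4b. Each sequence is read 5′ to 3′ on the gene's own minus strand from the 250 bases before the RefSeq start, as the longest run without bases of an exon annotated in GENCODE M21. The C5ar1 run lies inside the gene as placed above: longer annotated transcripts begin farther upstream, and in these it is intronic. Capitals mark a match to a searched motif. The C1qb stretch is chr4:136886201-136886450, the C1qc stretch chr4:136893066-136893164, the C5ar1 stretch chr7:16259339-16259512 and the C3ar1 stretch chr6:122856162-122856407.
C1qb: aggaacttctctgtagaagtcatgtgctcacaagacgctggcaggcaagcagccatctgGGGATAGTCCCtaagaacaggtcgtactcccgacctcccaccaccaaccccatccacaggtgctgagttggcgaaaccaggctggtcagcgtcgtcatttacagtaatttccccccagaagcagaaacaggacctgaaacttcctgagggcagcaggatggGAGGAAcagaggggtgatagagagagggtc
C1qc: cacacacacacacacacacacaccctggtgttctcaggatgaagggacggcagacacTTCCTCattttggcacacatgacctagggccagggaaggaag
C5ar1: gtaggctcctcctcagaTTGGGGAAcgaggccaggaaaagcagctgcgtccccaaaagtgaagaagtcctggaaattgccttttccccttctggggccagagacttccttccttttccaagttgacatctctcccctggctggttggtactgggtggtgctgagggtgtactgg
C3ar1: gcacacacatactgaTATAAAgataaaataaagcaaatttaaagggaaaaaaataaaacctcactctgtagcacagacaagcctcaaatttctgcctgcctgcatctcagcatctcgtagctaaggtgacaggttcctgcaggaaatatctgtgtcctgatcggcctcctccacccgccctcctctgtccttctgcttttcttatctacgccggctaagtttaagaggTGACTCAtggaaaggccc

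Motifs were searched on both strands of the 250 bases before the start, and a match is a description of letters only. The PU box GAGGAA, the core letters bound by the macrophage factor PU.1, was found in C1qb 30 to 25 bases before the start and in C1qc on the opposite strand 193 to 188 bases before it. It occurs in 23.3% of the 32851 RefSeq windows of the same length. The NF-kB pattern was matched in C1qb as GGGATAGTCC, 191 to 182 bases before the start, overlapping a match on the opposite strand, and in C1qc on the opposite strand 40 to 31 bases before it, within an annotated exon and so not printed. It was also matched in C3, and occurs in 17.6% of windows. The C/EBP letters TTNNGNAA lay 157 to 150 bases before the start in C5ar1 and 81 to 74 bases before it in C1qc, the latter not printed, and they were matched in C3 too. Such letters occur in 36.8% of windows. In C3ar1 the AP-1 letters TGANTCA lay 22 to 16 bases before the start (6.75% of windows) and TATAAA lay 235 to 230 bases before it (12.4% of windows). The composite site of IRF and ETS factors, the core of the interferon-stimulated response element and the Maf letters TGCTGAC, found in 2.30%, 2.98% and 3.81% of windows, were matched in none of the 6 member windows.

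The C1q chains are the products of neighbouring genes and assemble into C1q, the recognition molecule of the classical pathway. C1qa, encoding the A chain, measured 1181, 1147 and 1087 CPM in young samples A, B and C, and 382, 689 and 533 CPM in the aged samples of the same letters. Every aged sample lay below every young sample, with aged A lowest. Its log2 fold change of aged over young was -1.09 (SE 0.22, 95% confidence interval -1.58 to -0.60, edgeR adjusted p = 0.013). Without young C or aged C its adjusted p was 0.061 or 0.0564.

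C1qb, encoding the B chain, measured 2872, 3057 and 2810.0 CPM in young samples and 1078, 1728 and 1435 CPM in aged samples. Again the groups did not overlap, and again aged A was lowest and aged B highest of the aged samples. The log2 fold change was -1.04 (SE 0.21, interval -1.50 to -0.58, edgeR adjusted p = 0.0123), with adjusted p = 0.0582 without young C and 0.0551 without aged C. C1qc, encoding the C chain, measured 1263, 1375 and 1287 CPM in young samples and 516, 887 and 668 CPM in aged ones. The same order of the aged samples was seen for this chain. Its log2 fold change was -0.92 (SE 0.21, interval -1.39 to -0.45, edgeR adjusted p = 0.0199), and the adjusted p was 0.0629, 0.0814 and 0.0814 without young B, young C or aged C. Of the 3 chains, C1qa and C1qb passed the study's additional requirement of a change over 2-fold, and C1qc did not. Cfb and C5ar1 also passed it, so that 3 members were lower and 1 higher by more than 2-fold, beside 4.20% and 4.59% of all tested genes.

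**Figure D1:**
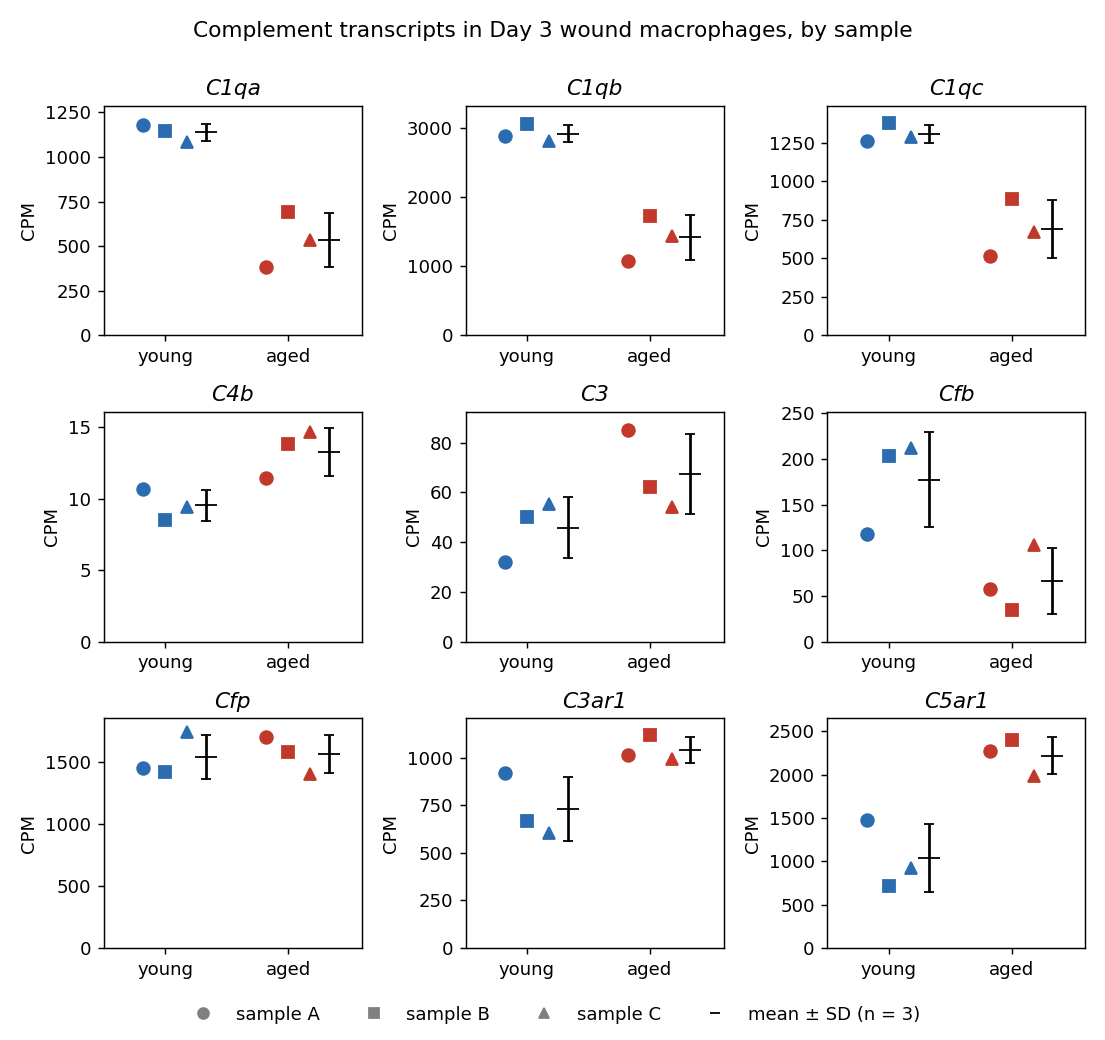
Level of each complement gene in CPM (linear axes from 0), with 1 symbol per sample, young in blue and aged in red, and bars for the mean ± SD of each group (n = 3). Aged samples lie below all young samples for C1qa, C1qb, C1qc and Cfb, above them for C3ar1, C5ar1 and C4b, and overlap them for C3 and Cfp.

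The C1q chains moved together and kept nearly the same proportions. Their summed level was 5316, 5579 and 5183 CPM in young samples A, B and C and 1976, 3304 and 2636 CPM in aged ones. As a share of all counts this was 0.591%, 0.608% and 0.513% in young samples and 0.185%, 0.324% and 0.238% in aged samples. Within the sum, C1qb held 52.3% to 54.8% in all 6 samples, C1qc 23.8% to 26.8% and C1qa 19.4% to 22.2%. The log2 ratio of C1qa to C1qb differed between aged and young samples by -0.06 (exact two-sided permutation test, p = 0.4, adjusted p = 0.48 over the 6 member pairs compared), and the groups overlapped. The log2 ratio of C1qc to C1qb was higher by 0.11 in aged samples, without overlap (exact permutation p = 0.1, adjusted p = 0.15). With 3 samples against 3 this test cannot give a p below 0.1. When 1 sample was left out, the C1qc to C1qb difference ran from 0.072 (without aged B) to 0.142 (without aged C). The C1qa to C1qb difference then ran from -0.106 (without aged B) to -0.022 (without aged A).

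**Figure D2:**
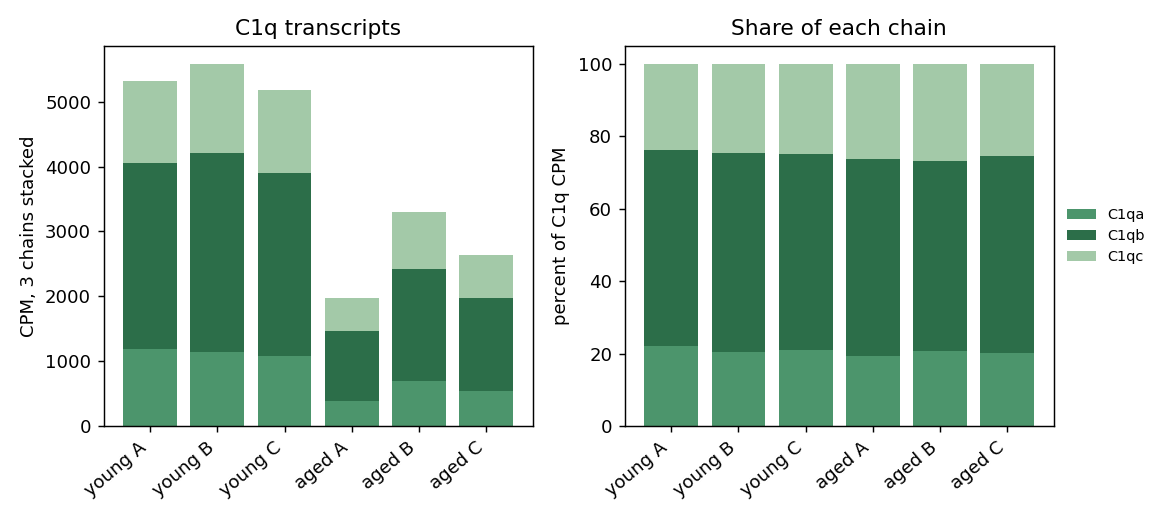
Left, summed level of the C1q chains in each sample in CPM, with C1qa, C1qb and C1qc stacked. Right, percent of that sum held by each chain. The left bars drop from 5183 CPM or more in young samples to 3304 CPM or fewer in aged samples. In the right bars C1qb keeps 52.3% to 54.8% throughout.

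The spread of C1q among samples of a group was wider in aged macrophages. On the log2 CPM scale, the SD of C1qa was 0.06 in young and 0.43 in aged samples, that of C1qb 0.06 and 0.34, and that of C1qc 0.07 and 0.39. This difference in spread was not tested. The order of aged samples, A below C below B, was also that of Cbr2, Folr2, Gas6, Mrc1, Cd163 and Lyve1, genes used as markers of resident dermal macrophages, but not of F13a1 and the scarce Timd4 from the same list. These markers did not share a direction between the ages: the log2 fold change was -1.16 for Cbr2, -0.97 for Folr2, -1.13 for Gas6 and -0.04 for Mrc1, against 1.47 for Cd163, 1.46 for Lyve1 and 0.42 for F13a1. Cbr2 measured 213, 269 and 237 CPM in young samples and 58.4, 180.0 and 84.1 CPM in aged ones, and it was called lower (edgeR adjusted p = 0.0428). Folr2 measured 147, 195 and 220.3 CPM in young samples and 46.4, 160 and 80.9 CPM in aged ones, with edgeR adjusted p = 0.0897. Cd163 measured 20.6, 34.8 and 19.6 CPM in young samples and 27.6, 141 and 38.8 CPM in aged ones, with edgeR adjusted p = 0.0739. Of the 7 tested of 8 markers of that list, 1 was called lower and none higher, and their summed level ranged from 1142 to 1595 CPM in young samples and 1125 to 1739 CPM in aged ones. The part of resident cells in the C1q result was not tested.

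C4b encodes the C4 protein that C1s cleaves to begin C3 convertase assembly, and it was the least expressed member. It measured 10.7, 8.51 and 9.45 CPM in young samples and 11.4, 13.8 and 14.6 CPM in aged ones. Every aged value was above every young value. The log2 fold change was 0.48 (SE 0.21, interval 0.02 to 0.94), and with an edgeR adjusted p of 0.129 it was not called. Limma-voom with sample quality weights gave an adjusted p of 0.0461. C4b shares 8.26% of its 150-base transcript stretches with the near-copy C4a, which has no row in the table used here, so a small part of its reads could have been split.

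C3 is the central protein of the cascade, cleaved by every pathway into the peptide C3a and the opsonin C3b. Its transcript measured 32.1, 50.04 and 55.5 CPM in young samples and 85.3, 62.4 and 54.4 CPM in aged ones. Aged C fell among the young samples, so the groups overlapped, and the highest value was that of aged A. The log2 fold change was 0.55 (SE 0.24, interval 0.03 to 1.08), not called at an edgeR adjusted p of 0.126. It was 0.35 without aged A, 0.36 without young A and 0.32 with limma-voom, and no fit that left out a sample called C3, with adjusted p from 0.135 to 0.34. Against the C1q sum, C3 was 1.62 higher in aged samples on the log2 ratio scale, with no overlap (exact permutation p = 0.1, adjusted p = 0.15).

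Cfb encodes factor B, the protease subunit of the alternative pathway C3 convertase. It measured 117, 203 and 211 CPM in young samples A, B and C and 57.6, 35.03 and 106 CPM in aged samples. Every aged value was below every young value, with aged C close to young A. With a log2 fold change of -1.42 (SE 0.36, interval -2.23 to -0.62, edgeR adjusted p = 0.0267), Cfb had the largest fitted change of the 9 members. The adjusted p was 0.0911, 0.111 and 0.0671 without young B, young C or aged A. In the annotation, the overlapping gene model Gm20547 on the same strand contains 80.7% of the 150-base stretches of Cfb and has no row in the table used here. Reads shared between them could have been counted for either, so the level of Cfb is uncertain.

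Cfp encodes properdin, which stabilises the alternative pathway convertase and is made by myeloid cells. It measured 1451, 1419 and 1740.4 CPM in young samples and 1702, 1581 and 1399.9 CPM in aged ones. The groups overlapped, and the log2 fold change was 0.02 (SE 0.18, interval -0.37 to 0.42, edgeR adjusted p = 0.944). This interval leaves out a change of 2-fold in either direction. The sign of this small difference was not stable, and under limma-voom it was -0.11. Relative to properdin, factor B transcripts were lower by 1.54 in aged samples on the log2 ratio scale. The ratio of Cfb to Cfp was 0.0811, 0.143 and 0.122 in young and 0.0339, 0.0222 and 0.0755 in aged samples, without overlap (exact permutation p = 0.1, adjusted p = 0.15).

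C3ar1 and C5ar1 encode the receptors through which C3a and C5a act on myeloid cells, and C5a is a strong attractant of neutrophils and monocytes. C5ar1 measured 1475, 710.3 and 927 CPM in young samples and 2268, 2405 and 1990 CPM in aged ones. All aged samples were above all young ones, and young A was the highest of the young samples. The log2 fold change was 1.10 (SE 0.26, interval 0.53 to 1.67, edgeR adjusted p = 0.0208), past the 2-fold mark. Without young B, young C or aged C the adjusted p was 0.0687, 0.0995 and 0.0563.

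C3ar1 measured 919, 666 and 607 CPM in young samples and 1014, 1121 and 992 CPM in aged ones. The aged samples were again above the young ones, with young A closest to them. The log2 fold change was 0.51 (SE 0.20, interval 0.08 to 0.95), not called at an edgeR adjusted p of 0.0921. This outcome depended on young A and on the tool: the adjusted p was 0.0234 without young A, 0.0434 by DESeq2 and 0.015 by limma-voom. The ratio of C5ar1 to C3ar1 was 1.61, 1.07 and 1.53 in young and 2.24, 2.14 and 2.00 in aged samples. The difference of 0.63 on the log2 ratio scale had no overlap (exact permutation p = 0.1, adjusted p = 0.15). The ratio of C3 to its receptor C3ar1 overlapped between the groups and differed by 0.03 on that scale (exact permutation p = 1), and by -0.39, -0.17 and 0.31 without young A, aged A or young C.

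Among the 9 members, 3 had all aged samples above all young samples, 4 had all below and 2 overlapped. Over all tested genes, 19.2% had every aged sample above and 19.0% every aged sample below, 38.2% in all without overlap. Levels of different members were compared as CPM per kilobase of the longest coding transcript. In young samples C1qb was first at 2678 ± 118 CPM per kilobase (SD, n = 3), followed by C1qa at 1094 ± 46.0, C1qc at 1087 ± 49.2 and Cfp at 939 ± 108, whose ranges overlapped. C5ar1 at 409 ± 155, C3ar1 at 170 ± 38.5, Cfb at 64.4 ± 18.9, C3 at 8.93 ± 2.38 and C4b at 1.77 ± 0.20 then followed, each with a range apart from the next.

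In aged samples C1qb at 1299 ± 300, Cfp at 954 ± 92.9 and C5ar1 at 874 ± 83.4 CPM per kilobase (SD, n = 3) came first. The range of C1qb overlapped that of Cfp, and that of Cfp overlapped C5ar1. C1qc at 574 ± 155 and C1qa at 514 ± 147 came after them and overlapped each other. C3ar1 stood at 242 ± 16.0, and Cfb at 24.0 ± 13.1 overlapped C3 at 13.1 ± 3.12. C4b was again last, at 2.47 ± 0.31 CPM per kilobase. By mean CPM among the tested genes, C1qb moved from rank 42 in young to rank 109 in aged samples, C5ar1 from 125 to 68 and Cfb from 736 to 2011.

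The rest of the complement system was read from a list of 55 genes that includes the members. Of these, 23 had no row in the table used here, 9 had too few counts for the test and 23 were tested. Across the tested genes 4 were higher and 6 lower in aged macrophages, and their median log2 fold change was 0.25, beside -0.02 over all tested genes. Leaving the members aside, 14 were tested, of which 3 were higher, 2 lower and 9 not called, against 17.7% of all tested genes called in either direction.

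**Figure D3:**
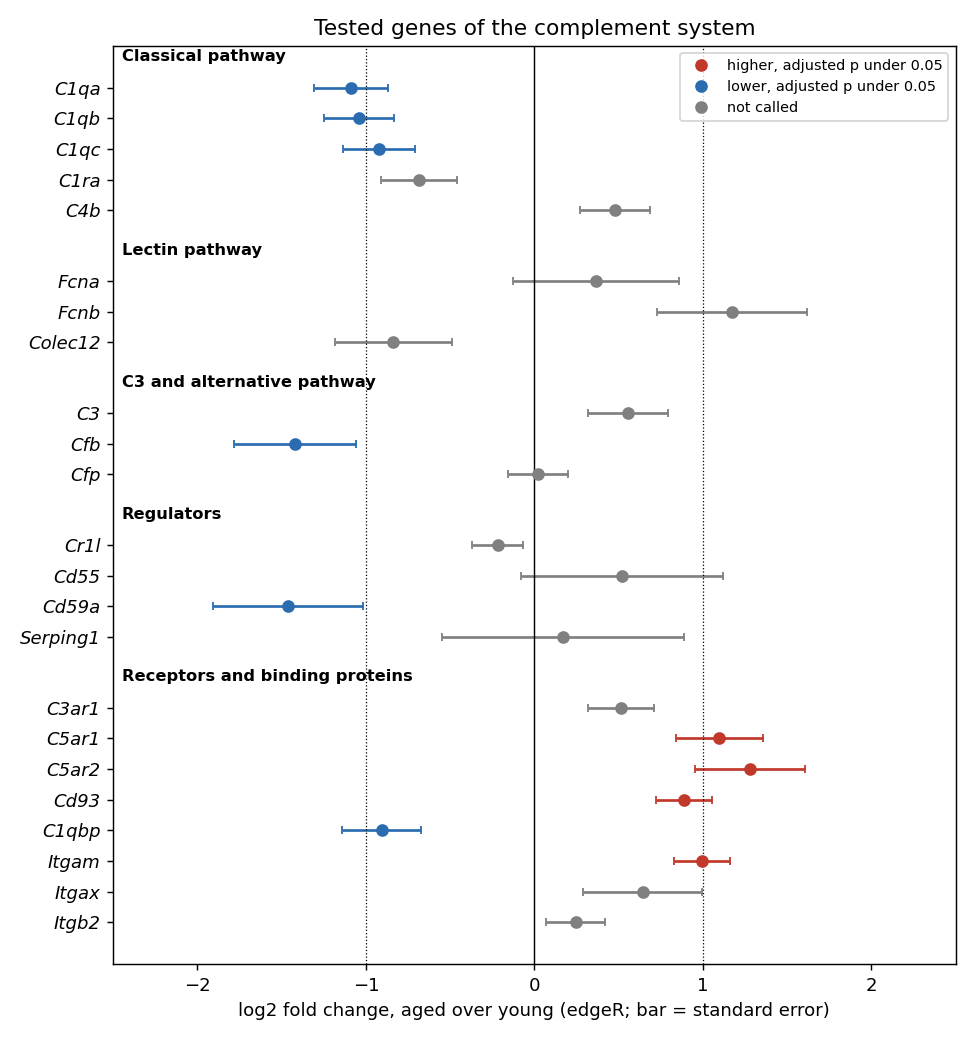
Log2 fold change of aged over young samples for the 23 tested genes of the complement system, grouped by role, with bars of 1 standard error from edgeR and dotted lines at a 2-fold change. The C1q chains, Cfb, Cd59a and C1qbp are called lower and C5ar1, C5ar2, Cd93 and Itgam called higher.

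Outside the members, the 3 genes called higher encode receptors or binding proteins. C5ar2, the other receptor for C5a, measured 4.37, 4.17 and 3.37 CPM in young samples and 5.81, 14.0 and 9.08 CPM in aged ones. Its log2 fold change was 1.28 (SE 0.33, edgeR adjusted p = 0.0267), and it was not called without young B, young C, aged B or aged C (adjusted p = 0.0743, 0.114, 0.0753 and 0.071). The values of aged samples were spread widely, but none reached down to the young range.

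Itgam encodes the alpha chain of complement receptor CR3, which binds C3 fragments on opsonised particles, and is also the CD11b antigen of the sort. It rose from 376 ± 36.7 to 749.9 ± 63.7 CPM (SD, n = 3 per group, log2 fold change 0.99, SE 0.17, edgeR adjusted p = 0.00735), and it stayed called whichever sample was left out. Cd93, a surface protein of phagocytes first described as a C1q receptor, rose from 101 ± 3.79 to 187 ± 28.9 CPM (log2 fold change 0.89, SE 0.17, edgeR adjusted p = 0.0103, and 0.0578 without young C). Itgb2, the common beta chain of CR3 and CR4, had means of 535 and 634 CPM and was not called (log2 fold change 0.25, edgeR adjusted p = 0.347). Itgax, the alpha chain of CR4, overlapped between the groups, with 5.18 ± 2.07 CPM in young samples and 8.11 ± 3.00 CPM in aged ones (edgeR adjusted p = 0.224).

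Among the regulators, Cd59a, which blocks assembly of the membrane attack complex, fell from 4.75 ± 1.31 to 1.72 ± 1.11 CPM (SD, n = 3 per group), at 80 counts over the aged samples. Its call was narrow (log2 fold change -1.46, SE 0.45, edgeR adjusted p = 0.0466), and of the fits without 1 sample only that without aged B called it (0.0127), the others giving 0.0718 to 0.153. It was also not called with the set letter as a replicate block (edgeR adjusted p = 0.0596) or without a filter on low counts (0.0517). The membrane regulator Cr1l measured 70.7, 82.5 and 74.9 CPM in young samples and 70.3, 61.8 and 64.1 CPM in aged ones, without overlap but with edgeR adjusted p = 0.336.

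C1qbp encodes a mainly mitochondrial protein that also binds C1q. It fell from 61.5 ± 11.4 to 32.8 ± 9.64 CPM (SD, n = 3 per group, log2 fold change -0.91, SE 0.23, edgeR adjusted p = 0.027), with adjusted p = 0.114, 0.0648 and 0.104 without young C, aged A or aged C. C1ra, the C1r protease that C1q carries, measured 9.57, 11.4 and 9.25 CPM in young samples and 5.39, 6.11 and 7.29 CPM in aged ones. Its groups did not overlap, and its edgeR adjusted p was 0.061. In the lectin pathway, ficolin A (Fcna) was highest in aged B at 29.1 CPM, while the other 5 samples ran from 5.04 to 13.5 CPM (edgeR adjusted p = 0.631).

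Much of the cascade was barely detected in these cells. C2, the protease partner of C4, had 25 counts over the young and 10 over the aged samples. The membrane attack components C6, C8g and C9 had between 7 and 33 counts per group, and C7, C8a, C8b and C5 itself (Hc) had no row in the table used here. Cfd, the factor D protease that cleaves factor B, measured 1.22, 0.35 and 4.43 CPM in young samples and 0 to 0.51 CPM in aged samples, too few counts for the test. Of the soluble components on the list, the C1q chains and Cfp were the most abundant in both groups.

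The genes with the profile most like each member's were found by the root mean square (RMS) difference of log2 CPM, each gene centred on its own mean over the 6 samples. All tested genes were candidates, and the 6 samples include the difference between the ages, so the likeness describes these samples only. For C1qa the nearest gene was C1qb (RMS 0.07), then the predicted gene Gm6997 (0.07) and C1qc (0.11). For C1qb they were C1qa (0.07), C1qc (0.07) and D030028A08Rik (0.10). For C1qc the nearest was Gart (0.06), an enzyme of purine synthesis, ahead of C1qb (0.07) and Nipa1 (0.08). The C1q chains were thus among each other's nearest profiles for C1qa and C1qb, and C1qa ranked 6 for C1qc.

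**Figure D4:**
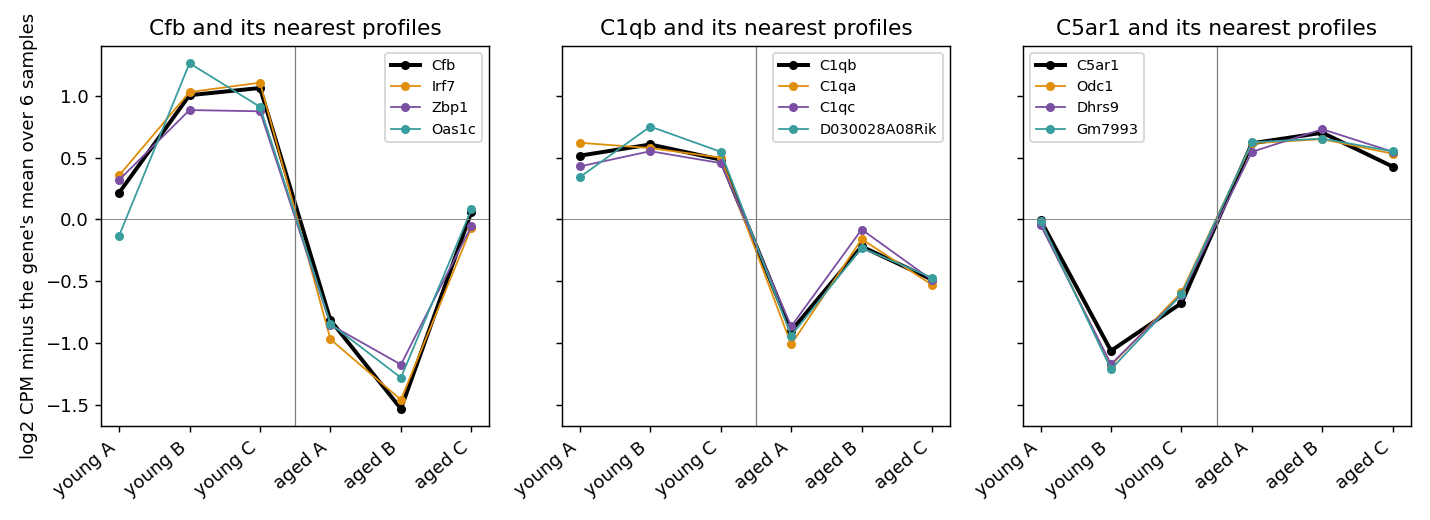
Profiles of Cfb, C1qb and C5ar1 (black) with the 3 genes nearest to each, as log2 CPM minus the gene's mean over the 6 samples. Lines only join the points of a gene: Cfb and Irf7 share the lowest point in aged B and a point near 0 in aged C, while C1qb and its neighbours are lowest in aged A.

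Cfb followed a different course from the C1q chains among the aged samples, being lowest in aged B, which had the highest C1q levels of the aged samples. Its nearest profile was that of Irf7 (RMS 0.11), a transcription factor of the type I interferon response. Irf7 measured 235, 375 and 395 CPM in young samples and 94.0, 67.0 and 176 CPM in aged ones, the same order as Cfb in all 6, and it was called lower (log2 fold change -1.58, edgeR adjusted p = 0.0152). Next came Zbp1 (RMS 0.18), a nucleic acid sensor induced by interferon, with means of 86.3 and 34.3 CPM (log2 fold change -1.33, edgeR adjusted p = 0.0151). Oas1c (RMS 0.21), of the oligoadenylate synthetase family, followed at means of 2.00 and 0.71 CPM and was not called (edgeR adjusted p = 0.0885). Between Cfb and C1qb the RMS difference was 0.66.

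For C5ar1 the nearest profiles were Odc1 (RMS 0.08), the rate-limiting enzyme of polyamine synthesis, Dhrs9 (0.08), a retinol dehydrogenase family member, and Gm7993 (0.09). Odc1 measured 858, 387 and 582 CPM in young samples and 1340, 1371 and 1263 CPM in aged ones (log2 fold change 1.12, edgeR adjusted p = 0.0202). As with C5ar1, young A was highest and young B lowest of the young samples. For C3ar1 they were Sfswap (0.04), E130309D02Rik (0.05) and Clk3 (0.06), and for C4b Rab3gap2 (0.03), Nrf1 (0.04) and Bloc1s4 (0.05). For C3 the nearest profiles lay farther off, Dlg1 (0.13), Apobr (0.14) and Dram1 (0.14). For Cfp they were Ftl1-ps1 (0.04), Tbcb (0.05) and Rnaseh1 (0.05), none of which was called. Among members outside C1q, C3ar1 and C4b were the most alike, at an RMS difference of 0.17. Many other tested genes were nearer to each, as C4b ranked 379 for C3ar1 and C3ar1 ranked 571 for C4b.

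Other features of the samples are given beside these results, and only some of them differed between the age groups. Total expected counts ran from 15270103 to 17927483 per sample. Young A and aged A stood apart from the rest of their groups in a chi-square comparison of sample pairs across genes. Per degree of freedom it gave 114.84 and 120.16 for young A against B and C, and 31.9 for young B against C. For aged A against B and C it gave 120.58 and 95.32, and 45.74 for aged B against C. The sort antigens Ptprc and Fcgr1 were not called (edgeR adjusted p = 0.386 and 0.52), while Adgre1, which encodes F4/80, was lower in aged samples (log2 fold change -0.69, edgeR adjusted p = 0.0292). Like C1q, Adgre1 had its lowest value in aged A (172 CPM) and its highest aged value in aged B (241 CPM), below the young range of 289.6 to 357 CPM. The summed level of 8 macrophage markers did not overlap, at 27967 to 43048 CPM in young samples and 20174 to 25536 CPM in aged ones, most of it from Lyz2, and 1 of them, Itgam, was called higher and 1, Adgre1, lower. The summed level of 8 inflammatory monocyte markers was 1620 to 3362 CPM in young samples and 3664 to 5078 CPM in aged ones, with Vcan, Hp and Fn1 called higher and Ly6c2 and Ccr2 not (edgeR adjusted p = 0.818 and 0.706). The summed level of 12 neutrophil markers was 579 to 1027 CPM in young samples and 790.1 to 1432 CPM in aged ones, with 4 called higher and 0 lower. Those called were Cd177, Cxcr2, Lcn2 and Retnlg, with log2 fold changes of 1.62, 1.13, 0.99 and 0.85. Ly6g itself stayed low, at 6.14 to 10.9 CPM in young samples and 6.18 to 9.60 CPM in aged ones, while neutrophils are also known to express C5ar1, Itgam and Cfp. Aged B stood out with 189 CPM of keratinocyte markers, against 1.94 to 9.11 CPM in the other samples, and 122 CPM of fibroblast markers, against 13.2 to 41.7 CPM. Mast cell markers summed to 94.8, 46.6 and 25.6 CPM in young samples A, B and C and to 64.2 CPM in aged A, but to 1.02 CPM in aged B and 0.74 CPM in aged C. The summed level of 6 endothelial markers was 11.8 to 12.6 CPM in young samples and 25.9 to 31.3 CPM in aged ones, most of it from Pecam1 (log2 fold change 1.69, edgeR adjusted p = 0.0022), while Kdr and Vwf were not called (log2 fold change -0.40 and -0.38) and Cdh5, Tie1 and Cldn5 were each at 0.70 CPM or less in every sample. That of the B cell markers was 4.62 to 12.9 CPM in young samples and 2.61 to 4.08 CPM in aged ones, most of it from Cd79b (log2 fold change -1.58, edgeR adjusted p = 0.0308), with Cd79a and Ms4a1 each at 0.57 CPM or less. The part of these cell types in the complement results was not tested.

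**Figure D5:**
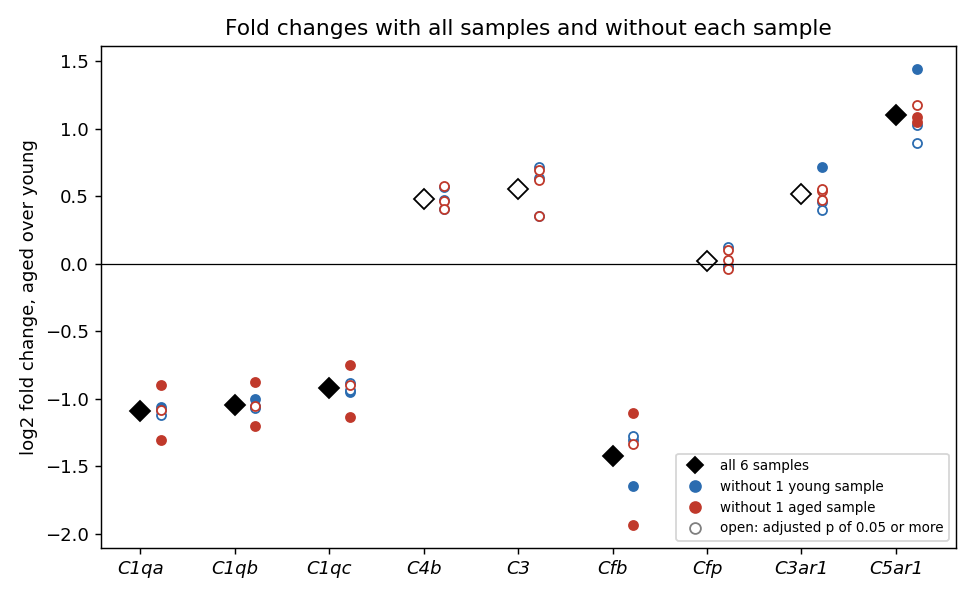
Log2 fold change of aged over young samples for each member with all 6 samples (diamonds) and without 1 young (blue) or 1 aged (red) sample; open symbols have an edgeR adjusted p of 0.05 or more. The direction of 8 members stays the same in every such fit, and Cfp lies around 0.

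The direction of change of C1qa, C1qb, C1qc, Cfb, C5ar1, C3, C3ar1 and C4b was the same whichever sample was left out, while the calls were not. C1qa and C1qb were called in 4 of those 6 fits, and C1qc, C5ar1 and Cfb in 3. C3ar1 was called in 1 of them, and C3, C4b and Cfp in none. Without young C, genes called higher among all tested genes numbered 151 and genes called lower 67, against 1156 and 947 with all samples. Under each of the 6 other settings tried with all samples, C1qa, C1qb, C1qc, C5ar1 and Cfb were called.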

How the data were processed

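RNA of sorted wound macrophages (3 young and 3 aged samples, Day 3) was amplified with a SMART-Seq kit, which does not mark strand, and sequenced as 150 bp paired-end reads. The authors aligned reads with STAR 2.7.3a to mm10 and quantified Ensembl release 102 transcripts in Partek, and deposited expected counts per gene without normalisation, for genes with a total of at least 10. A second deposited table of the authors' own DESeq2 comparison was not used here. Totals were 16263373, 15642483 and 15282178 counts in young A, B and C, and 15270103, 15998054 and 17927483 in aged A, B and C. Before scaling, 1 count was thus worth 0.0558 to 0.0655 CPM. On the TMM-scaled totals used for the CPM given here, 1 count was worth from 0.0553 CPM (young A) to 0.0701 CPM (aged A).

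Here the expected counts were rounded, then compared in edgeR 4.0.16 under R 4.3.3 (TMM scaling, filterByExpr by age, quasi-likelihood test, Benjamini-Hochberg adjustment over 11878 genes). Library sizes for CPM were TMM-scaled, and a prior count of 2 was added for log2 CPM. Ratios of members were compared by exact two-sided permutation tests. Alternatives were DESeq2 1.42.0, its size factors in edgeR, no filter, a filter of at least 10 counts in every sample, limma-voom (limma 3.58.1) with sample quality weights, a block for the set letter, and omission of each sample in turn. The script was tested on simulated data. Gene positions and lengths came from GENCODE M21, an annotation other than the one counted. The members and the gene lists were chosen with earlier results of these data known. Genes named are the members, the called genes of the complement list and the 5 most abundant of its other genes, the 3 nearest profiles of each member, the sort antigens, and marker lists whose level moved with a member or differed between samples. C2, C6, C7, C8a, C8b, C8g, C9, Hc, Cfd and individual markers were named after their values were seen. A gene of the complement list is not reported here and was left out of its counts.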

Additional observations from a re-analysis of the deposited data

How the results depend on the processing

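With 3 samples per group, the calls of single genes rested on few samples. Cd59a, with 80 counts over the aged samples, had the fewest counts of the complement genes called. Across the fits without 1 sample, the log2 fold change ranged from -1.30 to -0.90 for C1qa, -1.20 to -0.88 for C1qb, -1.13 to -0.75 for C1qc, -1.93 to -1.11 for Cfb, 0.89 to 1.44 for C5ar1, 0.40 to 0.71 for C3ar1, 0.35 to 0.71 for C3, 0.41 to 0.58 for C4b and -0.041 to 0.122 for Cfp. Genes of the complement list called higher numbered 1 to 5 and lower 0 to 7, and over all genes 151 to 1574 were called higher and 67 to 1128 lower. The count of 0 came from edgeR without young C. For C3ar1 the change was 0.52 with DESeq2 (adjusted p = 0.0434) and 0.62 with limma-voom (0.015), and for C4b 0.54 with limma-voom (0.0461), all 3 then past the threshold. Cfp turned to -0.11 with limma-voom. Limma-voom called 7 genes of the list higher, and 1933 of all genes higher and 1713 lower, while DESeq2 called 1474 and 1091. Cd59a had adjusted p = 0.0517 without a filter. The causes were not tested. Whether the set letters pair the samples cannot be decided here, because deviations are taken from means of only 3 samples. The deviations of same-letter samples correlated at 0.18 (A), -0.02 (B) and 0.11 (C) across genes. The A pair had the highest value of all pairs. Young B and young C correlated best with an aged sample of another letter, at 0.05 with aged C and 0.14 with aged B. With the letter as a replicate block, C1qa changed by -1.13, C1qb by -1.07, C1qc by -0.96, Cfb by -1.51 and C5ar1 by 1.16, all called, Cd59a was not called (adjusted p = 0.0596), and 1202 of all genes were called higher and 912 lower.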
